A study of Mus musculus with 4 samples.

Results

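The proliferating cells of the early lesion are 271 of 1085 mammary gland cells of MMTV-neu mice, out of 1905 cells in all 4 libraries of the series. They are the 25% of cells in the early lesion library with the highest score, the score being the percentage of a cell's UMIs (unique molecular identifiers, each counting 1 captured transcript) that fell in Ube2c, Nusap1, Hmgb2, Cdc20, Ccnb1, Birc5, Cdk1, Cenpa, Pttg1 and Top2a. The remaining 814 cells of the library are called the other cells. The members were thus chosen on measured values. Every difference between the 2 sets of cells is a description of 1 library, with no test, and the 10 ranking genes support nothing.

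The library holds CD45- HER2+ sorted cells from mammary glands of MMTV-HER2/Neu mice on the FvB background, aged 14 to 18 weeks and without a palpable tumor. For comparison, the primary tumor library holds cells sorted in the same way from tumors of mice of the same transgenic line older than 20 weeks that carried primary tumors, and the 2 lung libraries come from lungs of mice at these stages. All libraries of the series share the transgene, whose MMTV promoter directs the HER2/neu receptor tyrosine kinase to the mammary epithelium. There is 1 library for each group, captured with the 10x Chromium 3' v2 kit. The number of mice behind a library is not given in the sources used here, so no spread between animals can be given.

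Cells that divide copy their DNA in S phase and segregate it in mitosis. Genes of the replication machinery are switched on by E2F factors before and during S phase, whereas many genes of G2 and mitosis are held down in resting cells by the DREAM complex and switched on late in the cycle by B-Myb and FoxM1 together with NF-Y, which binds CCAAT letters. The element through which DREAM acts is known as the cell cycle genes homology region. In the mammary gland, luminal progenitor and alveolar cells divide during pregnancy, while milk protein and milk lipid genes come up under prolactin, Stat5 and Elf5. HER2 signals through the ERK and PI3K pathways to cyclin D.

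The promoters of 4 ranking genes that act in mitosis, and of 1 replication gene, are printed as examples of the letters used in the search described after them. The windows run from 150 bases before the gene start to 30 after it and are given 5' to 3' on the gene's strand (RefSeq, GRCm38.p6). Capitals in the first 4 mark the cell cycle genes homology region, searched as TTTGAA with its variants spelled TTCGAA and also TTTAAA, and the letters CCAAT, each read on both strands, and those in the last mark the E2F site, searched as TTTGGCGC with its variants spelled TTTCGCGC and also TTTGGCGG and also TTTCCCGC, read on both strands, where 2 of the matches overlap.
Ube2c (chr2:164769779-164769958, plus strand): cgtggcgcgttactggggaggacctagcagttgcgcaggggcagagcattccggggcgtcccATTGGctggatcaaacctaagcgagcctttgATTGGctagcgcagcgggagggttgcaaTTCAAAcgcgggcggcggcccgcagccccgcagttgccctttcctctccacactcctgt
Cdc20 (chr4:118437314-118437493, minus strand): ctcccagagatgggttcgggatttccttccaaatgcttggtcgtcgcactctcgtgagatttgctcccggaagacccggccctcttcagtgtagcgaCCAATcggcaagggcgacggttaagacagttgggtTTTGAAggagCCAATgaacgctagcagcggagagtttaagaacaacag
Ccnb1 (chr13:100786457-100786636, minus strand): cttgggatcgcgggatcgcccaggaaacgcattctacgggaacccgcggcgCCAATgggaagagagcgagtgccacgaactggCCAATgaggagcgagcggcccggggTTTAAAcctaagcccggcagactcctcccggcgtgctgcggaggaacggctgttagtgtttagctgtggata
Cdk1 (chr10:69352883-69353062, minus strand): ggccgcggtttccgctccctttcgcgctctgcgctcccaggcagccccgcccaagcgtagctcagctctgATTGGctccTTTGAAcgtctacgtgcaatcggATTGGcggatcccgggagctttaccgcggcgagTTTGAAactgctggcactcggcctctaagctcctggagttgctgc
Mcm6 (chr1:128359676-128359855, minus strand): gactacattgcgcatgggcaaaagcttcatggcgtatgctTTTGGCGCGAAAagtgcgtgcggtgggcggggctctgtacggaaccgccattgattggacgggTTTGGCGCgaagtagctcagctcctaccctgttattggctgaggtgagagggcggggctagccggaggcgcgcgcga

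Ube2c is the ubiquitin-conjugating enzyme and Cdc20 the activator of the anaphase-promoting complex, Ccnb1 is cyclin B1 with its kinase Cdk1, and Mcm6 is a subunit of the replicative helicase. Capitals do not mark every match. In lower case, the Cdk1 window also holds the E2F letters TTTCGCGC, and the Mcm6 window also holds ATTGG. Over windows of 300 bases, from 250 before to 50 after the gene start, 8 of the 10 ranking genes held the homology region letters and 7 held them together with CCAAT. Of the 47 measured G2 and mitosis genes that had a promoter entry, 40 (85.1%) held the homology region letters and 34 (72.3%) held both motifs, against 31.9% and 14.0% of all 27025 promoters. Among 43 replication genes, 12 (27.9%) held the homology region letters, while 20 (46.5%) held an E2F site, against 2.70% of all promoters. CCAAT was held by 76.6% of the mitosis promoters, 58.1% of the replication promoters and 41.1% of all promoters, a smaller contrast. Among 15 milk protein genes, 5 held the homology region letters, 0 held an E2F site and 5 held TTCNNNGAA, the Stat5 letters, which 9.55% of all promoters held. TTTAAA can also be part of a TATA box, and a match says only that the letters are there.

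The score had no gap at the point where the members end. It ran from 0.287% to 1.73% in the proliferating cells with a median of 0.674%, and from 0 to 0.285% in the other cells with a median of 0.0286%. The last members had 3 ranking UMIs of 1044 (0.287%) and 4 of 1371 (0.292%), and the first cells outside had 18 of 6320 (0.285%) and 21 of 7535 (0.279%). The proliferating cells held 3 to 142 ranking UMIs with a median of 17, and the other cells held 0 to 21 with a median of 1. At least 5 of the 10 genes were seen in 205 proliferating cells (75.6%) and in 21 other cells (2.58%). Among the other cells 327 held 0 ranking UMIs and 150 held 3 or more.

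**Figure D1:**
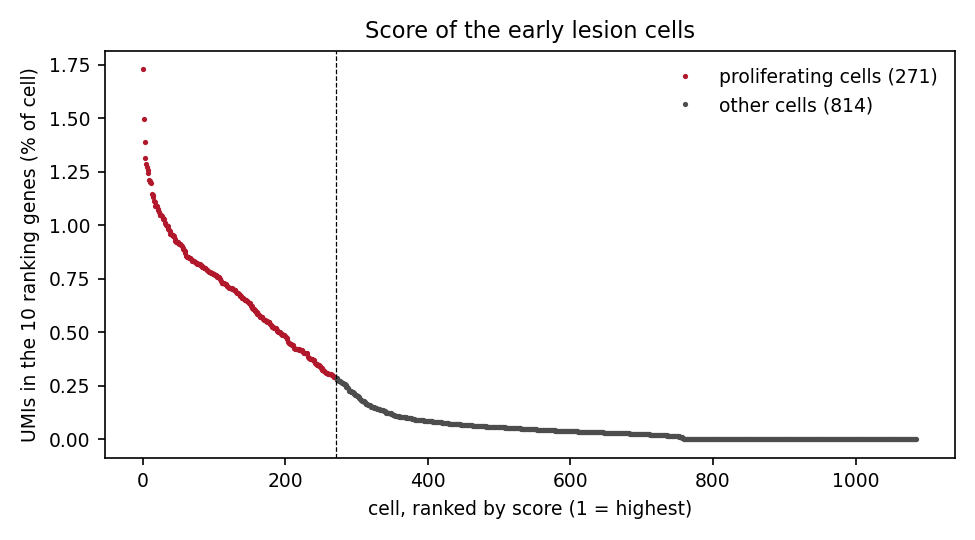
Percentage of each cell's UMIs in the 10 ranking genes (vertical axis) by rank (horizontal axis) for the 271 proliferating cells (red) and 814 other cells (grey) of the early lesion. The score declines from 1.73% and passes the dashed line at rank 271 without a break.

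The ranking genes themselves are given as a description, since they chose the cells. Ube2c, whose promoter is printed above, had 1131 counts (1172 CPM) in proliferating cells and 114 (40.7 CPM) in other cells, a log2 ratio of 4.84, and stood at 250 CPM in free RNA. Its homology region letters begin 29 bases before the gene start. Cdc20, with such letters 18 bases before the start, had 456 counts in proliferating cells and 62 in other cells (4.41), and Ccnb1, with TTTAAA 42 bases before the start, had 344 and 39 (4.66). Cdk1 holds such letters 71 and 15 bases before its start and had 413 counts in proliferating cells and 62 in other cells (4.26). Nusap1, a spindle protein, had the highest ratio of the 10 (354 and 27 counts, 5.23). Top2a, the topoisomerase that untangles sister DNA, had 182 counts in proliferating cells and 19 in other cells (4.77), Birc5 (survivin) had 547 and 105 (3.91), and Cenpa, the centromeric histone, had 317 and 46 (4.31). Hmgb2, a chromatin protein, had most counts, with 2505 in proliferating cells and 653 in other cells (3.48), and Pttg1 (securin) had the lowest ratio (409 and 140, 3.08).

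Both sets of cells had nearly the same depth. The median was 2869 UMIs per proliferating cell and 2859.5 per other cell, and cells over 10000 UMIs numbered 8 among the proliferating and 13 among the other cells. At 1000 UMIs per cell, after random thinning, the median was 549.5 genes per proliferating cell and 515 per other cell. Mitochondrial genes took a median of 0.111% of UMIs in proliferating cells and 0.120% in other cells. No barcode was shared between the cells of any 2 libraries (0 shared). Summed over cells, the proliferating cells hold 964665 UMIs and the other cells 2802959.

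Markers of the label were checked as far as the rule allows. The 7 proliferation markers are all ranking genes, so they check nothing, and summed to 3692 counts scaled to 1000000 UMIs (CPM) in proliferating cells and 162 CPM in other cells. Luminal markers (Epcam, keratins 8 and 18, caseins, Wfdc18, Elf5 and Cldn3) summed to 72312 CPM in proliferating cells and 81216 CPM in other cells, against 75368 CPM in free RNA, and all 271 proliferating cells and 810 of the other cells held 5 or more of their UMIs. A sum at the level of free RNA does not by itself show that a cell is luminal. Epcam, an adhesion molecule of epithelia, stood at 979 CPM in proliferating cells and 864 CPM in other cells. Ptprc, which encodes CD45, had 0 counts in proliferating cells, which allows up to 3.11 CPM by counting error, and 4 in other cells, and all 7 T, NK and B cell markers were at 0 in the proliferating cells. The mouse gene Erbb2 had only 8 counts in proliferating cells and 20 in other cells. Its levels in them could not be told apart at these counts (log2 ratio 0.27, interval -1.18 to 1.46). Whether transcripts of the transgene are counted under Erbb2 is not given in the sources used here. The Erbb2 counts are therefore not read as the level of the sorted receptor. The basal markers summed to 268 CPM in proliferating cells and 404 CPM in other cells, and the fibroblast markers to 5.18 CPM in proliferating cells and 117 CPM in other cells, with Pdgfra, Col1a1, Col1a2 and Dcn at 0 in the proliferating cells.

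For each gene, counts were summed over the cells of a set, scaled to CPM, and compared as a log2 ratio of proliferating over other cells, with an exact 95% interval that covers counting error only. A gene was taken as past the fold when the ratio was at least 1.5-fold and the interval excluded equality. Of 8099 genes with at least 20 counts, 833 (10.3%) were past the fold and higher in proliferating cells and 433 (5.35%) were lower, and the median log2 ratio of all genes was 0.10. With scaling by the median ratio in place of total UMIs, 693 were higher and 546 were lower. No count below is evidence apart from the ranking, since every gene of these cells is tied to it. Counts of list members below are to be read beside these shares of all genes, 10.3% higher and 5.35% lower.

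The list of 64 genes of G2 and mitosis leaves out those used for the ranking. All 59 measured members were past the fold and higher in the proliferating cells. Their median log2 ratio was 3.72, with a range of 1.15 to 6.02. Members with few counts in both sets were not measured. Some measured ones, such as Prc1, Kif23 and Anln, reached the count minimum mostly through the proliferating cells. With cells ranked on genes of mitosis, the count of higher members was therefore in part built in and tests nothing. Together the genes of the list took 0.829% of UMIs in proliferating cells and 0.0970% in other cells, against 0.243% in the free RNA of the library (barcodes of at most 50 UMIs). In single cells the share was 0.805% at the median of proliferating cells, with quartiles of 0.541% and 1.01%, and 0.0705% at the median of other cells, with quartiles of 0.0316% and 0.124%. The quartile ranges did not overlap.

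Prc1, which bundles the microtubules of the central spindle, had 143 counts (148 CPM) in proliferating cells and 8 counts (2.85 CPM) in other cells, a log2 ratio of 5.62 (4.68 to 6.94). The gene lies at chr7:80294450-80316259 (plus strand, mm10). Other genes at the top of the ranking serve the same steps of division. Cenpf, a kinetochore protein, had 134 counts in proliferating cells and 11 in other cells (log2 ratio 5.09), and Kif23, the motor of the midzone, had 89 and 7 counts in the same order (5.12). The spindle assembly genes Tpx2, with 159 counts in proliferating and 16 in other cells, and Aurka, the kinase it activates, with 131 and 13, had log2 ratios of 4.81 and 4.82. Sgol1, the protector of centromeric cohesion (4.98), the microtubule depolymerase Kif2c (4.96), the centrosomal kinase Nek2 (4.71), the cytokinesis factor Ect2 (4.69) and Hmmr, a spindle protein (4.67), followed.

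Anln, the cytokinetic ring protein, had the highest ratio of the list, with 33 counts in proliferating cells and 1 in other cells (log2 ratio 6.02, interval 4.0 to 11.93). Familiar markers were within this range. Mki67 had 76 counts in proliferating cells and 18 in other cells (3.59), Ccna2 (cyclin A2) had 210 and 44 (3.78), and Plk1, the polo-like kinase, 119 and 18 (4.23). Cks1b, a small Cdk-binding protein that is also active earlier in the cycle, was the lowest with 244 counts in proliferating cells and 319 in other cells (1.15). Mki67 was seen in 6.20% of proliferating cells (3.59% to 9.88%) and 0.894% of other cells (0.360% to 1.83%) after thinning to 1000 UMIs, and in 18.5% and 1.84% without thinning. The lesion's 23 cells that carry markers of non-epithelial types have a median of 2411 UMIs, and 3 of them are proliferating cells. In these 23 cells Mki67 was seen in 8.70% (2 cells, interval 1.07% to 28.0%) after thinning. That interval spans the share in proliferating cells, and the 23 cells include members, so they cannot set a background for Mki67. Ccna2 was seen in 20.9% of proliferating cells and 1.15% of other cells after thinning, in 43.9% and 4.67% without, and in 1 of the 23 cells (4.35%).

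DNA replication genes were higher in the proliferating cells in part. Of 54 measured members, 30 were past the fold and higher, 1 was lower, and the median log2 ratio was 0.81, against 0.10 over all genes. With the top 10% of cells taken as proliferating, 20 were higher and 4 lower. Several of the higher genes make nucleotides or act at the replication fork. Tk1, thymidine kinase, had 83 counts in proliferating cells and 48 in other cells (log2 ratio 2.32, interval 1.80 to 2.87), and Rrm2, the ribonucleotide reductase subunit, had 116 and 108 (1.64, interval 1.25 to 2.03). With the top 10% as proliferating the ratio was 1.19 for Tk1 and 0.02 for Rrm2. Tyms, Dut and Pcna had ratios of 1.31, 1.12 and 0.98.

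Other members of the list were level or had lower counts in the proliferating cells. Ung, a uracil DNA glycosylase, was the lowest, with 4 counts in proliferating cells and 92 in other cells (log2 ratio -2.82, interval -4.89 to -1.58). Cdc6 had 2 counts in proliferating cells and 23 in other cells (-1.69, interval -5.11 to 0.03), and Cdt1, the other licensing factor, had 13 and 67 (-0.78, interval -1.81 to 0.04), neither past the fold. Of the 6 helicase genes Mcm2 to Mcm7, Mcm5 alone was past the fold (0.82), while Mcm6 had 80 counts in proliferating cells and 183 in other cells (0.35, interval -0.05 to 0.73) and Mcm3 had a ratio of -0.44.

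After thinning to 1000 UMIs, at least 3 UMIs of the G2 and mitosis list were held by 239 of 258 proliferating cells (92.6%) and 64 of 783 other cells (8.17%). At least 3 UMIs of the replication list were held by 121 proliferating cells (46.9%) and 142 other cells (18.1%). Both lists were held by 108 proliferating cells and 23 other cells, and replication transcripts without those of mitosis by 13 proliferating cells (5.04%) and 119 other cells (15.2%). The free RNA of the library holds 0.191% of its UMIs in the replication list and 0.243% in the mitosis list, and its part in these numbers was not tested. As the members were chosen on genes of mitosis, few of them could lack its transcripts. With the other cells that hold 3 or more replication UMIs left out, the median of the replication list was 1.78, and with the other cells limited to those with 0 ranking UMIs it was 1.66.

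**Figure D2:**
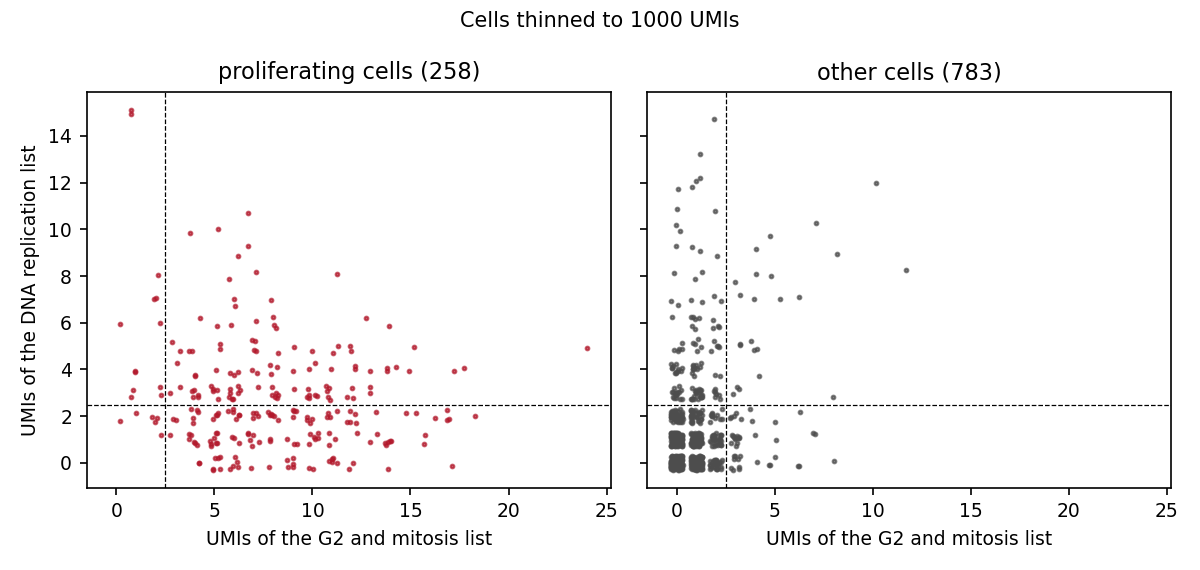
UMIs of the DNA replication list (vertical axis) against UMIs of the G2 and mitosis list (horizontal axis) in cells thinned to 1000 UMIs, for 258 proliferating cells (left, red) and 783 other cells (right, grey), with small random offsets to separate points. Dashed lines mark the step to 3 UMIs; 239 proliferating cells lie right of the vertical line, and 119 other cells lie above the horizontal line and left of the vertical one.

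Along the score, mitosis genes followed the ranking, which they are close to by nature, and took 1.1%, 0.832% and 0.518% of UMIs in the 90 highest, 90 middle and 91 lowest members, 0.154% in the next 271 cells outside and 0.0707% in the other 543. Replication genes took 0.233%, 0.267% and 0.351% of UMIs in the members, highest first, 0.273% in the next 271 cells and 0.111% in the other 543. The quartiles over cells overlapped within the members, at 0.148% and 0.302%, 0.130% and 0.307%, and 0.133% and 0.497%, so no order among them is read from the list. Mki67 stood at 118, 74.7 and 38.7 CPM in the members, 9.02 CPM in the next cells and 5.22 CPM in the rest. Mcm6 stood at 63.4, 68.2 and 119 CPM in the members, highest first, at 130 CPM in the next cells and at 35.5 CPM in the rest. Mcm5 stood at 60.5, 74.7 and 61.3 CPM in the members, 67.7 CPM in the next cells and 23 CPM in the rest, and Tk1 at 66.2, 101 and 93.6 CPM in the members, 42.9 CPM in the next cells and 5.22 CPM in the rest. Single genes thus did not share an order. Cdt1 stood at 2.88, 13 and 25.8 CPM in the members, 40.6 CPM in the next cells and 16.2 CPM in the rest. The share of the replication list in the next 271 cells thus lay within the range of the members, although the median over cells was lower there, at 0.132%, than in the lowest members, at 0.254%.

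**Figure D3:**
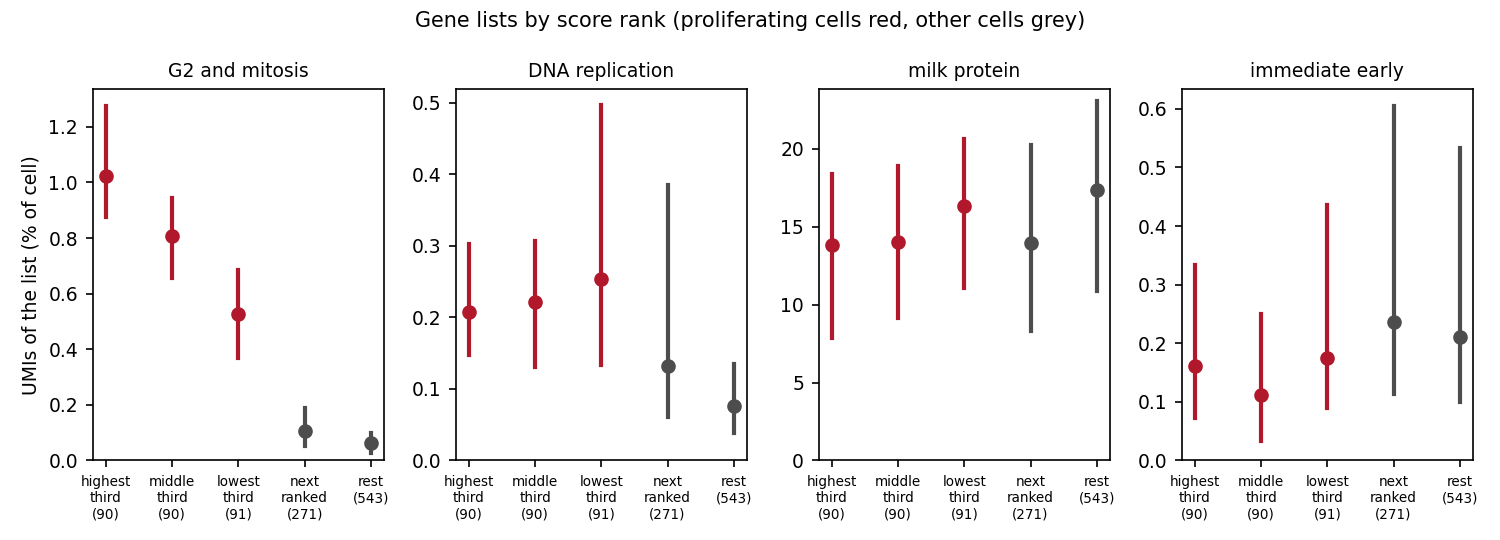
Percentage of UMIs per cell in 4 gene lists (vertical axes, each from 0) for the proliferating cells split by score (red) and for the other cells, next ranked and rest (grey). Points are medians over cells and bars run between quartiles. The G2 and mitosis median drops from 1.02% in the highest members to 0.0612% in the rest, and the replication median is 0.208%, 0.221% and 0.254% in the members, with overlapping quartiles.

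Chromatin and cytoskeleton genes of dividing cells, which build the histones, tubulins and chromosomal proteins used at division, were past the fold in 34 of 38 members, all higher, with a median of 1.5. H2afx, the histone variant of DNA damage signalling, had 306 counts in proliferating cells and 121 in other cells (log2 ratio 2.87), the tubulin gene Tuba1c had 500 and 218 (2.73), and Tubb6 had 63 and 21 (3.10). Cenpk, of the inner kinetochore, stood at 76.7 CPM in proliferating cells and 12.1 CPM in other cells (2.65).

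In single cells this list took a median of 2.42% of UMIs in proliferating cells, with quartiles of 2.04% and 2.76%, and 0.984% in other cells, with quartiles of 0.713% and 1.33%. The quartile ranges did not overlap, although the highest other cell, at 4.5%, lay above the highest proliferating cell, at 3.98%.

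Regulators of the G1 phase did not follow as a group. Of 21 cyclin D, CDK and CDK inhibitor genes, 5 were higher, 3 were lower, and the median log2 ratio was 0.06, near that of all genes. The 5 higher genes are known mainly as brakes of the cycle. They were the CDK4/6 inhibitors Cdkn2d (36 counts in proliferating cells and 13 in other cells, log2 ratio 2.97) and Cdkn2c (54 and 47, 1.74), Cdkn1b, which encodes p27 (58 and 77, 1.13), the pocket protein gene Rbl1 (14 and 12, 1.75) and the atypical cyclin gene Ccng2 (1.12). Cyclin D1 (Ccnd1) had 106 counts in proliferating cells and 469 in other cells, a log2 ratio of -0.60 (-0.92 to -0.30). The antiproliferative genes Btg2 (-0.75) and Mxd4 (-0.87) were the other lower genes. The kinase gene Cdk4 was level, with 253 counts in proliferating cells and 698 in other cells (log2 ratio 0.08, interval -0.14 to 0.28), and Cdk2, Cdk6, Myc and Rb1 were not past the fold. Of 11 p53 target genes 1 was higher, Aen (0.81), and 1 lower, Gadd45a, with 7 counts in proliferating cells and 68 in other cells (-1.65). Beside the 10.3% and 5.35% of all genes, these p53 counts are not read as a result about the list.

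**Figure D4:**
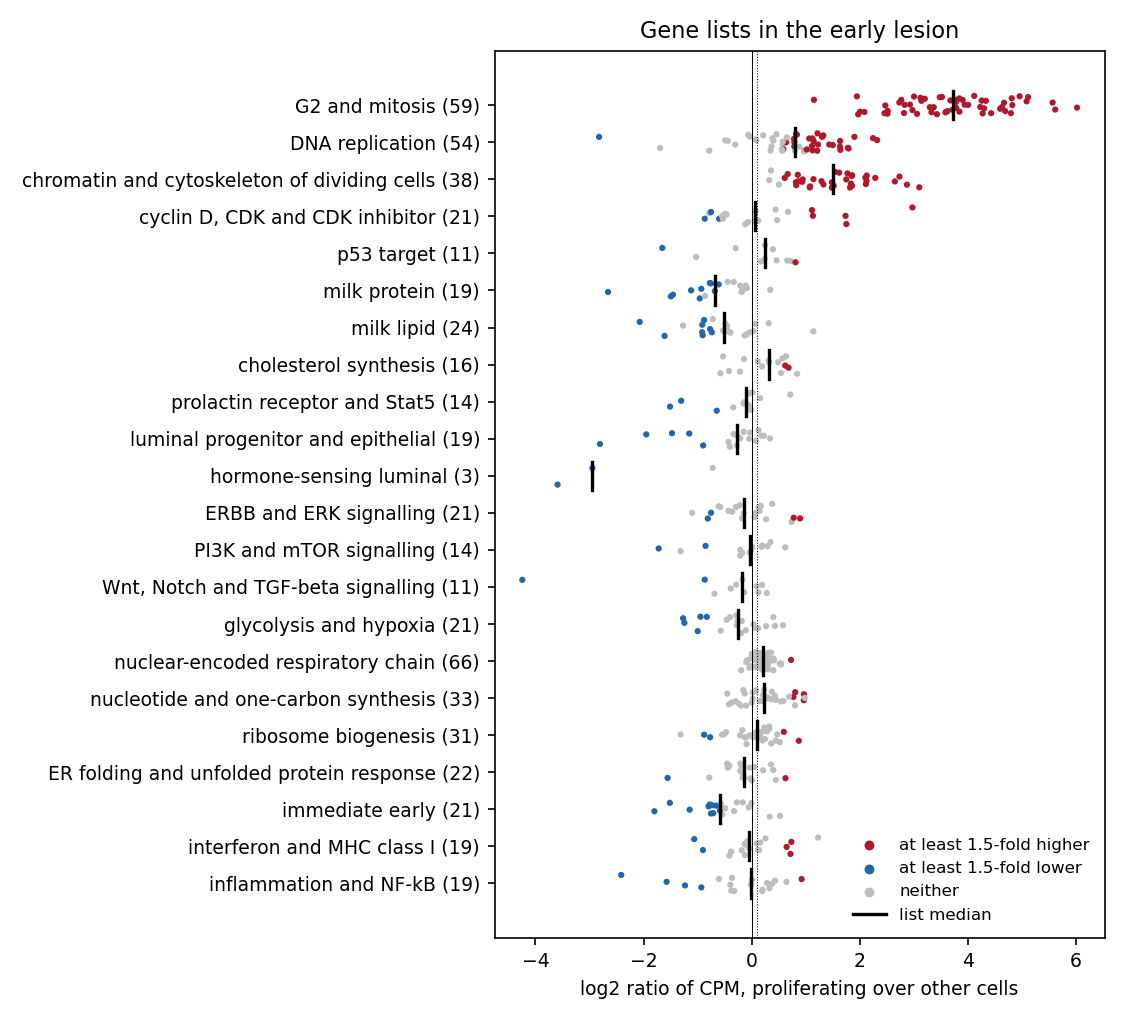
Log2 ratio of CPM, proliferating over other cells (horizontal axis), for the measured members of the 22 gene lists (rows, number of members in brackets), with red for genes at least 1.5-fold higher, blue for genes at least 1.5-fold lower, and black bars for list medians. The dotted line is the median of all genes, 0.10. The G2 and mitosis list (median 3.72) lies wholly to the right, and the milk protein (-0.68), milk lipid (-0.50) and immediate early (-0.59) medians lie to the left.

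Milk protein genes divided into those that were level in the proliferating cells and those that were lower. Of 19 measured members 10 were lower, 0 were higher, and the median log2 ratio was -0.68. The genes summed to 15% of UMIs in proliferating cells and 17.3% in other cells, against 16.2% in free RNA. The casein genes were near level. Csn2 (beta-casein) had 48866 counts in proliferating cells and 150927 in other cells (-0.09), and Csn1s1, Csn1s2a and Csn3 had ratios of -0.11, -0.17 and -0.21. Csn2 was seen in all 271 proliferating cells and all 814 other cells, with medians of 487 and 488 per 10000 UMIs, and also in 23 of 23 cells with non-epithelial markers (100%), so its presence in a cell is read as background.

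In single cells the milk protein list took a median of 14.6% of UMIs in proliferating cells, with quartiles of 9.36% and 19.5%, and 16.2% in other cells, with quartiles of 9.88% and 22.0%, so the ranges overlapped over most of their width. Along the score the list took 13.1%, 14.5% and 17.6% of UMIs in the members, highest score first, 15.8% in the next 271 cells and 18.0% in the rest.

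Lalba, which encodes alpha-lactalbumin, the regulator of lactose synthesis, stood lowest in the list. It had 174 counts (180 CPM) in proliferating cells and 3196 (1140 CPM) in other cells, a log2 ratio of -2.66 (-2.89 to -2.44), and 1175 CPM in free RNA. The gene lies at chr15:98480400-98482721 (minus strand, mm10). It was seen in 15.1% of proliferating cells (11% to 20.1%) and 38.2% of other cells (34.8% to 41.7%) after thinning to 1000 UMIs, and in 28.0% and 56.1% without thinning. Cells with non-epithelial markers showed it in 39.1% (9 of 23 cells, 19.7% to 61.5%). Of these cells 3 are proliferating and 20 are other cells, so they cannot set a background for Lalba. The share in proliferating cells was below that of other cells, and the part of free RNA in either share was not tested. Within the members its level was 115, 227 and 207 CPM, highest score first, and outside it was 692 CPM in the next 271 cells and 1348 CPM in the rest.

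The other lower milk genes are products of the late alveolar cell and of mucosal defence. Wap (whey acidic protein) had 231 counts in proliferating cells and 1308 in other cells (-0.96, interval -1.17 to -0.76), and stood at 132, 195 and 404 CPM in the members, highest score first, at 333 CPM in the next 271 cells and at 529 CPM in the rest. Spp1 (osteopontin) had 1892 counts in proliferating cells and 11949 in other cells (-1.12), with medians of 7.85 and 6.78 per 10000 UMIs, so the lower sum was not seen at the median cell. The antimicrobial genes Wfdc3 (-1.49), Ltf (lactoferrin, -1.46) and Lcn2 (-0.93) were lower as well, as were Mfge8 (-0.77), Pigr (-0.75), Trf (-0.68) and Cel (-0.61). Muc15 was the only member with a positive ratio (0.34, not past the fold).

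Milk lipid genes pointed the same way: of 24 measured members 8 were lower, 0 were higher, and the median was -0.50. Btn1a1 (butyrophilin, which coats the milk fat globule) had 121 counts in proliferating cells and 601 in other cells (-0.77), and Xdh, its partner on the globule, had a ratio of -0.92. The fatty acid genes Fabp3 (-0.91), Me1 (-0.91), Elovl1 (-0.88) and Fasn (-0.74), together with Cidea (-2.07), were lower. Fabp4 is also an adipocyte and endothelial gene. Its ratio was -1.61 over all cells and 0.32 without the cells that hold 5 or more UMIs of non-epithelial markers, 3 of them proliferating and 20 other. In single cells the list took a median of 0.365% of UMIs in proliferating cells and 0.476% in other cells. Of 16 cholesterol synthesis genes 2 were higher, Idi1 (0.68) and Sqle (0.62), and 0 were lower. This is near the 10.3% and 5.35% of all genes and is not read as a result about the list. With the top 10% of cells as proliferating, Sqle had a ratio of -0.011.

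The upstream regulators of the milk programme were lower in part. Of 14 prolactin receptor and Stat5 genes 3 were lower and 0 higher, with a median of -0.10. Elf5, the alveolar transcription factor, had 603 counts (625 CPM) in proliferating cells and 2742 (978 CPM) in other cells, a log2 ratio of -0.65 (-0.78 to -0.52). It was seen in 41.5% of proliferating cells (35.4% to 47.7%) and 59.0% of other cells (55.5% to 62.5%) after thinning, against 13% (3 of 23 cells) of the cells with non-epithelial markers. Prlr, the prolactin receptor, had 11 counts in proliferating cells and 82 in other cells (-1.30), and Socs3, a feedback inhibitor, 5 and 45 (-1.51). Cebpb and Stat5a were not past the fold.

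Luminal identity genes that were past the fold were lower, while others went either way within it. Cdh1 had the highest ratio of the list (0.34, not past the fold). Epcam was seen in 60.9% of proliferating cells (54.6% to 66.8%) and 52.1% of other cells (48.5% to 55.7%) after thinning. Krt18 had 705 counts (731 CPM) in proliferating cells and 3817 (1362 CPM) in other cells (-0.90, interval -1.02 to -0.78), and its partner Krt8 had a ratio of -0.43. Median levels of Krt18 were 6.19 per 10000 UMIs in proliferating cells and 10.9 in other cells. Of 19 luminal progenitor and epithelial genes 5 were lower and 0 higher (median -0.26), the lower ones beside Krt18 being Aldh1a3 (-2.81), Lgals3 (-1.95), Krt7 (-1.47) and Tspan8 (-1.15). Aldh1a3 had 1 count in proliferating cells and 30 counts in 9 other cells (interval -8.72 to -0.78). Lgals3 had 4 counts in proliferating cells and 50 in other cells, and Krt7 had 7 and 60, so these ratios rest on few counts. Of the hormone-sensing luminal list only 3 of 15 genes were measured. Ptn, with 4 counts in 4 proliferating cells and 157 in 16 other cells (-3.59), and S100a6, with 6 and 145 counts (-2.95), were lower, whereas Esr1, Pgr and Areg had too few counts to be measured.

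Several of the genes with the lowest ratios of all rested on few cells. Acta2, smooth muscle actin, had 4 counts in proliferating cells and 299 in other cells (-4.52), of which 257 were in 7 cells. Without cells holding 5 or more UMIs of non-epithelial markers its ratio was -2.23, and without those with basal markers as well it was -1.38. Sparc, a matrix protein of stroma, had a ratio of -2.14 over all cells and -0.33 without the cells of non-epithelial markers. Cxcl13, a B cell attractant, had 10 counts in proliferating cells and 276 in other cells, 194 of them in 1 cell. Hp, haptoglobin, had 27 counts in proliferating cells and 425 in 89 other cells, 155 of them in 1 cell. Its ratio stayed between -2.62 and -2.01 under the alternatives. Cst3 (cystatin C) had 56 counts in 47 proliferating cells and 580 in 211 other cells (-1.82). Lao1, a milk amino acid oxidase (33 and 368 counts, -1.92), and Cck (11 and 143 counts, -2.10) had low ratios as well. No cell held more than 52 counts of Cst3, 21 of Lao1 or 11 of Cck.

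Energy metabolism differed gene by gene. Of 21 glycolysis and hypoxia genes 5 were lower and 0 higher, with a median of -0.26. Aldoa had 221 counts in proliferating cells and 1285 in other cells (log2 ratio -1.0, interval -1.21 to -0.79), and Aldoc, the other aldolase of the list, had 142 and 798 (-0.95). The hypoxia genes Vegfa (-1.27), Egln3 (-1.24) and Hilpda (-0.83) completed the lower genes, while Ldha (-0.26), Pkm (0.03) and Gapdh (0.12) were level. The 66 nuclear genes of the respiratory chain were uniform, with ratios of -0.19 to 0.73 and a median of 0.21. Cycs, cytochrome c, was the single gene past the fold, with 361 counts in proliferating cells and 633 in other cells (0.73, interval 0.54 to 0.92). In single cells the respiratory list took a median of 3.64% of UMIs in proliferating cells (quartiles 3.26% and 4.09%) and 3.14% in other cells (quartiles 2.67% and 3.66%). Along the score it took 3.59%, 3.75% and 3.69% in the members, highest score first, 3.39% in the next 271 cells and 3.14% in the rest.

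Biosynthetic genes stood near the background. Of 33 nucleotide and one-carbon genes 4 were higher and 0 lower (median 0.23), against 10.3% and 5.35% of all genes. The 4 were Psat1 and Psph of serine synthesis (0.97 each), Prps1 (0.81) and Atic (0.77). Of 31 ribosome biogenesis genes Wdr12 (0.87) and Gar1 (0.60) were higher and Ddx18 (-0.88) and Gnl3 (-0.77) lower, with a median of 0.11. The 84 ribosomal protein genes had a median of -0.14 and took 22.5% of UMIs in proliferating cells and 25% in other cells. Of 22 ER folding genes Hsp90b1 (0.63) was higher and Herpud1 (-1.56) lower.

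Signalling genes downstream of HER2 were few in counts and mostly level. Of 21 ERBB and ERK genes 2 were higher, 2 were lower, and the median was -0.15, against 10.3% higher and 5.35% lower over all genes. The adaptor Shc1 had 37 counts in proliferating cells and 63 in other cells (0.78). The early ERK target Ier3 (-0.75) and the ERBB inhibitor Errfi1 (-0.81) were lower. Of 14 PI3K and mTOR genes, Pik3r1, the regulatory subunit, had 72 counts in proliferating cells and 380 in other cells (-0.85), Irs1 had 3 and 33 (-1.72), and the median was -0.02. Of 11 Wnt, Notch and TGF-beta genes 2 were lower. Tgfb3 had 66 counts in proliferating cells and 352 in other cells (-0.87). Hey1, a Notch target, had 0 counts in proliferating cells and 27 in other cells, at least 3.10-fold lower against a floor of 3 counts over the proliferating cells. Egfr, a partner of HER2, and its ligand gene Areg were under 20 counts and not measured.

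Immediate early genes, which respond to growth signals and also to tissue dissociation, were in part lower in the proliferating cells. Of 21 measured genes 11 were lower and 0 higher, with a median of -0.59 and a range up to 0.52 (Nr4a1). Fos had 596 counts in proliferating cells and 2881 in other cells (-0.73, interval -0.86 to -0.61), Jun had 237 and 1198 (-0.80), and the Krüppel-like genes Klf4 (-1.80), Klf2 (-1.51) and Klf6 (-1.15) had the lowest ratios. The list's median share per cell was 0.160%, 0.111% and 0.174% in the members, highest score first, 0.236% in the next 271 cells and 0.210% in the rest. Fos stood at 1355 CPM in free RNA, above both sets, at 618 CPM in proliferating cells and 1028 CPM in other cells, and the part of free RNA in this difference was not tested. With the top 10% of cells taken as proliferating, 1 gene of the list was lower.

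Immune genes of the epithelium showed no common direction. Of 19 interferon and MHC class I genes 3 were higher, the proteasome gene Psmb9 (0.74), H2-Q7 (0.72) and Gbp2 (0.65), and 2 were lower, Ifitm3 (-1.06) and Irf9 (-0.90), with a median of -0.04. Of 19 inflammation genes Hp (-2.41), Saa1 (-1.57), Ccl20 (-1.23) and Lcn2 were lower and Icam1 (0.92) higher.

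The same score was applied to the primary tumor, where the top 25% were 106 of 425 cells. At or above the lowest score of the lesion's proliferating cells were 39 tumor cells (9.18%, interval 6.61% to 12.3%), and the tumor's own top 25% began at 0.0332%, with 28 of the 106 cells resting on 1 ranking UMI. After thinning to 1000 UMIs, 262 of 1041 lesion cells (25.2%, 22.6% to 27.9%) and 38 of 312 tumor cells (12.2%, 8.76% to 16.3%) held 3 or more ranking UMIs. In the lungs 0 of 185 early cells, which allows a share of up to 1.62% by the floor of 3 counts, and 2 of 210 late cells reached the lesion's lowest member score. In free RNA the ranking genes stood at 1729 CPM in the lesion and 654 CPM in the tumor. Among the tumor's 106 proliferating cells, 5 cells over 10000 UMIs hold 59.4% of the UMIs. Among its 319 other cells, 13 such cells hold 52.3%. Sums over tumor cells thus rest largely on few cells.

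In the tumor, 629 of 7475 genes (8.41%) were higher in proliferating cells and 404 (5.4%) lower. Of 6734 genes measured in both libraries, 271 were higher in both. They are 39.9% of the lesion's 680 calls, beside 8.88% of all these genes called in the tumor. They are 45.3% of the tumor's 598 calls, beside 10.1% called in the lesion. Cells of both libraries were ranked on the same 10 genes, so shared higher genes are in part built in. Higher in the lesion and lower in the tumor were 7 genes. Lower in both were 51 genes. They are 15% of the lesion's 340 calls, beside 5.15% called in the tumor, and 14.7% of the tumor's 347, beside 5.05% called in the lesion. Lower in the lesion and higher in the tumor were 11 genes. The mitosis list had 41 of 43 genes higher. Its median was 3.69, and stayed so with the 5 genes at 0 counts in other tumor cells set to their bound. The chromatin and cytoskeleton list had 32 of 36 higher (1.5).

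Replication genes of the tumor depended on the cells compared. Of 45 measured genes 41 were higher and 0 lower, with a median of 2.08 in the tumor and 0.81 in the lesion. Ung had 27 counts in proliferating and 17 in other tumor cells (log2 ratio 1.65, interval 0.74 to 2.64), and a ratio of -2.82 in the lesion. Cdt1 and Dtl had ratios of 2.43 each in the tumor, and -0.78 and -0.49 in the lesion. Mcm6 had 2.70 in the tumor and 0.35 in the lesion. Nucleotide synthesis genes were higher in 12 of 32 (median 0.61), with Psat1 at 2.37. These are values of 2 libraries with different score ranges, and the difference was not tested. With the tumor cells at or above the lesion's lowest member score taken as proliferating, the tumor median was 1.48. The lesion median at that same score limit was 0.81. With the lesion's other cells limited to those with 0 ranking UMIs, the lesion median was 1.66. That limit was not applied to the tumor's other cells, so the 1.66 has no matched tumor value. Of the 425 tumor cells 288 held 0 ranking UMIs. The milk protein list had 1 gene higher and 0 lower of 12 in the tumor (median -0.06). Lalba had 2146 counts in proliferating and 5664 in other tumor cells, a ratio of -0.40, and Csn2 had 65 and 52 (1.32). Immediate early genes had 4 of 14 higher and 0 lower in the tumor (median 0.29), against 11 lower of 21 in the lesion. Without tumor cells over 10000 UMIs 0 were higher and 2 of 9 lower, and with the lesion's lowest score as the limit 0 were higher and 6 of 14 lower. Aldoa was lower in the tumor too (-0.76), while Ccnd1 was past the fold and higher there (0.63) and Cdkn1b was not past the fold (-0.61, interval -1.52 to 0.17).

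**Figure D5:**
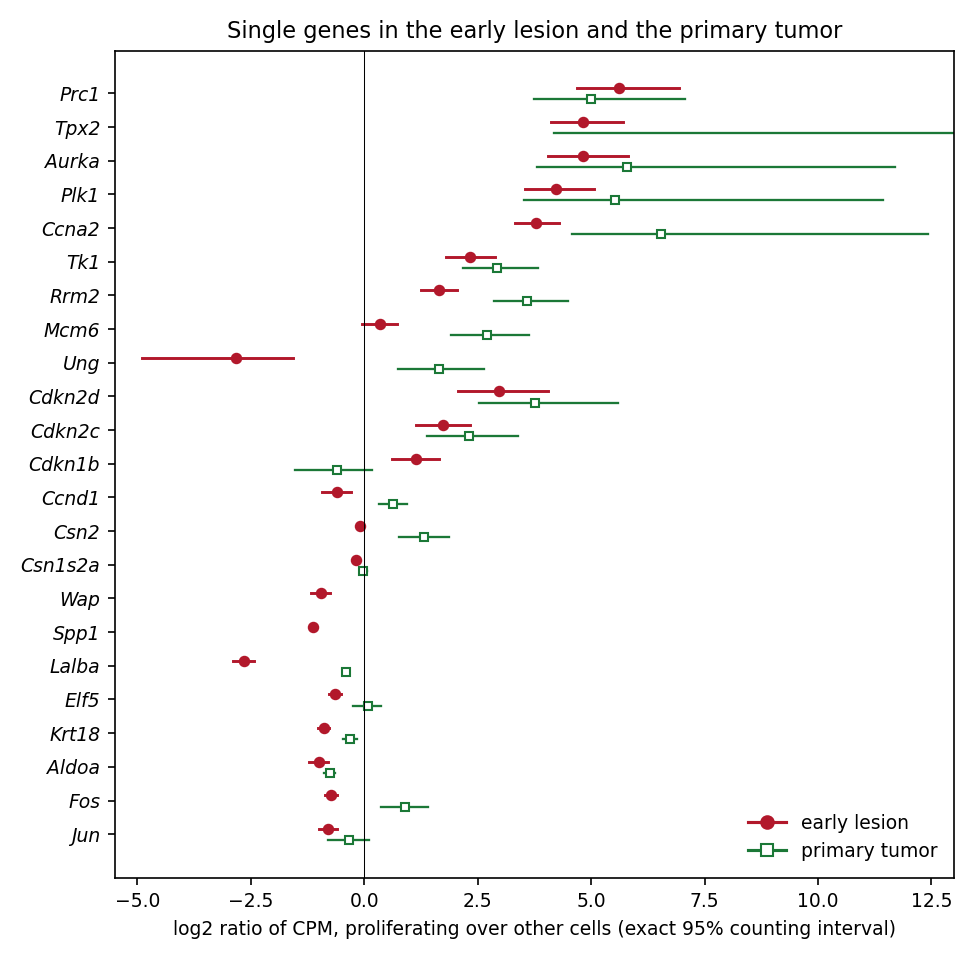
Log2 ratio of CPM, proliferating over other cells (horizontal axis), with exact 95% counting intervals, for single genes (rows) in the early lesion (red circles) and the primary tumor (green squares; only genes with at least 20 counts, and a line without a square where other tumor cells had 0 counts). Ung stands at -2.82 in the lesion and 1.65 in the tumor, and Lalba at -2.66 and -0.40.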

How the data were processed

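Cells were sorted as CD45- HER2+ and captured with the 10x Chromium 3' v2 kit, per the labels' protocols. The deposited files hold UMI counts per gene and barcode, not normalized, for 737280 listed barcodes, per the file headers and values, with the mm10 build per the submitters' processing notes. Aligner, annotation and mice per library are not given in the sources used here. Barcodes with at least 911 UMIs (tumor 534, lungs 500), 250 genes and at most 20% mitochondrial UMIs were kept as cells. Median depth was 2865 UMIs in the early lesion, 1673 in the tumor, 772 in the early lung and 811 in the late lung. Scrublet called 5 lesion cells (0.461%), too few to count as a working doublet call, and 4 of them were proliferating cells. They were kept.

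Counts were summed over cells, 0.5 counts were added, and log2 ratios of CPM were taken for genes with at least 20 counts over both sums. Intervals (95%, exact conditional Poisson for ratios, Clopper-Pearson for shares) cover counting error only, as does the floor of 3 counts used where a count was 0. With 1 library per group there was no test. Free RNA was the sum of barcodes with 1 to 50 UMIs. The genes named at the ends of the ranking are the 10 highest and 10 lowest genes at 50 CPM or more in either sum, by the interval bound nearest to equality, without ranking, mitochondrial, ribosomal protein and predicted genes, plus up to 4 members of each of 22 lists. Other list members in the text were chosen after their values were seen. The members of the set and the lists were chosen with earlier results of these data known. Alternatives changed the cells, the score, the scaling, the count minimum and the fold. Locations are from GENCODE M21, matched by gene identifier, and promoters from RefSeq (GRCm38.p6), matched by symbol. Scripts ran under Python 3.11.15 with numpy 2.4.6, scipy 1.17.1, pandas 2.3.3 and scanpy 1.11.5, and the ratio calculation was tested on simulated data. Some list members are not reported here.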

Additional observations from a re-analysis of the deposited data

Results flagged for a closer look

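The median log2 ratio of the immediate early list, proliferating over other cells, was -0.59 for lesion cells and 0.29 for tumor cells. The opposite signs drew attention to it, and the difference between the libraries was not tested. The tumor median was -0.35 without cells over 10000 UMIs and -1.38 with the lesion's lowest member score as the limit. In the late lung library, which no comparison uses, 2 of 210 cells (0.952%, interval 0.116% to 3.4%) lay at or above the lowest score of the lesion's proliferating cells, and both held 3 or more ranking UMIs.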

How the results depend on the processing

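No paired analysis was possible because each group has 1 library. Of 560 list medians, counts and shares under the alternatives, 525 stayed within the spread used for the comparison and 35 moved. Counts of genes past the fold were 423 higher and 235 lower with a minimum of 100 counts, and 474 higher and 235 lower at 2-fold. With the top 10% as proliferating, 244 genes were lower and the mitosis median was 2.65. With 5 counts added the median of all genes was 0.26. Against other cells with 0 ranking UMIs, medians were 4.51 for mitosis, 1.66 for replication, 1.93 for chromatin and cytoskeleton and -0.90 for milk protein. Against other cells without those holding 3 or more replication UMIs, replication stood at 1.78 and chromatin and cytoskeleton at 1.82. With no count minimum the hormone-sensing median was -0.68. In the tumor without cells over 10000 UMIs, 242 genes were lower and the medians were 0.12 for milk protein, 0.31 for hormone-sensing and -0.29 for ER folding genes. With the lesion's lowest score as the limit in the tumor, medians were -0.12 for all genes, -1.40 for milk lipid, -0.55 for prolactin and Stat5, -1.20 for luminal progenitor, 0.72 for hormone-sensing, -1.46 for PI3K, 0.31 for respiratory chain, -1.24 for ER folding, -1.38 for immediate early, -0.81 for interferon and -1.27 for inflammation genes. Shares of cells with a UMI, proliferating minus other in percentage points, were 16.6 without thinning and 11 at 2000 UMIs for Mki67, 39.2 and 30.1 for Ccna2, -28.1 without thinning for Lalba and -12.2 for Krt18. Sign changes of named genes were counted only for genes past the fold, which leaves out Erbb2 (range -0.35 to 0.60). Of 1680 values of named genes, 1575 stayed within the interval, 100 moved and 5 changed sign. These were Cxcl13 (1.87) and Fabp4 (0.55) with a minimum of 2000 UMIs per cell, Fabp4 without cells of non-epithelial markers (0.32) or of non-epithelial or basal markers (0.39), and Sqle with the top 10% (-0.011). The causes were not tested. Ranking without Hmgb2 and Pttg1 kept 252 of the 271 members, ranking on UMIs outside the milk proteins 265, and ranking after thinning 241 of 260. The ratio of a gene with few counts, such as Erbb2, Cdc6 or Irs1, has a wide interval, and the spread between animals is unknown.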
